A study of Mus musculus with 9 samples.

Results

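The xenobiotic sensors of the liver, the pregnane X receptor PXR (Nr1i2), the constitutive androstane receptor CAR (Nr1i3) and the aryl hydrocarbon receptor AHR (Ahr), were examined together with the AHR partner Arnt and with 3 genes that serve or answer drug metabolism, Por, Alas1 and Ces2a. The members were chosen by name, as every probe set that carries the symbol of the gene alone. Of the 7 genes, 6 had such a probe set, with 13 probe sets of the 45037 tested, or 6 of 18193 genes. Por, the reductase that hands electrons to microsomal cytochrome P450 enzymes, had no probe set under its name in the annotation used and was not analysed here.

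CAR and PXR are nuclear receptors that sense drugs and bile acids, pair with a retinoid X receptor and switch on the Cyp2b, Cyp2c and Cyp3a genes, conjugating enzymes and drug transporters. AHR is held in the cytosol by HSP90 until an aromatic ligand frees it to enter the nucleus and pair with ARNT, and its classic target is Cyp1a1. The new cytochrome P450 proteins need haem, which is why Alas1, the first and rate-limiting enzyme of haem synthesis, is itself a drug-responsive gene, and Ces2a encodes a carboxylesterase that hydrolyses ester drugs and is known as a PXR target.

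Liver RNA was hybridized to 9 Affymetrix mouse expression arrays, 3 each from control, amoxicillin and tylosin mice, all of them female C57BL/6J. Mice given pulsed antibiotic treatment (PAT) drank amoxicillin at 0.167 mg/ml, for 25 mg/kg each day, or tylosin at 0.333 mg/ml, for 50 mg/kg each day. The 3 pulses ran from day 10 through 15, from day 28 through 31 and from day 37 through 40, and the first of them reached the pups through their mothers. Control mice had no antibiotic, and every group was moved to high-fat chow after the last pulse. The collection age is 22 weeks in the study description and 24 weeks in the sample labels. The comparison asks whether drug-sensing genes differed between the groups long after the antibiotics were withdrawn. No array was taken near a pulse, so a response at that time was not measured. Pups of one litter all had the same treatment and the litter of each array is not given, so litter and treatment cannot be told apart. The replicates carry only numbers, and the p-values measure the spread between these samples.

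The deposited values are log2 intensities and ran from 2 to 14.71, and 28.4% of probe sets were over 6 in at least 3 arrays; a probe set under 6 is called dim below. Hepatocyte markers were at a mean level of 13.48 to 13.66 in every array. Amoxicillin replicate 1 and tylosin replicate 2 stood apart through genes of another tissue. The mean of 11 intestinal mucosa markers was 6.63 and 6.46 in these arrays and 4.70 to 5.27 in the other 7, and the mean of 7 smooth muscle markers was 5.94 and 6.21 against 4.20 to 4.58. Fabp2, Cdx1, Cdx2 and Lgals4 of the intestinal list did not set these arrays apart. Tylosin replicate 1 held Reg3b at 7.75, against 3.07 to 3.15 in control mice. Leaving out amoxicillin replicate 1 and tylosin replicate 2 thus keeps some of the intestinal signal. The mean of 8 macrophage and Kupffer cell markers was highest in tylosin replicate 3, at 9.34 against 8.18 to 9.09 in the other arrays, but the list split there. Marco was at 10.95 against 5.81 to 8.67 elsewhere, and Timd4, Cd5l, Adgre1 and Cd68 were also highest in this array. Timd4 was at 7.29 and Cd5l at 11.95, against at most 6.78 and 11.14 elsewhere. Clec4f, at 7.50 against 9.20 to 9.66, and Vsig4, at 9.40 against 9.99 to 10.52, were at their lowest. Csf1r lay within the range of the other arrays. In bulk liver, fewer cells of a type and less RNA per cell cannot be told apart.

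Promoter windows of 4 genes are shown as a description, and no test of expression below uses them. Nqo1 was the single gene of the pathway lists that was called, Cyp1a1 is the textbook AHR target, and Alas1 and Ces2a were the members with the widest gaps between groups. Each window is from RefSeq on GRCm38.p6 and holds 250 bases before and 50 from the annotated start, 300 in all. Capitals mark GCGTG, the core that AHR and ARNT bind, in Cyp1a1 and Alas1, and AGGTCA, a nuclear receptor half-site, in Ces2a. Nqo1 is at chr8:107403156-107403455 on the minus strand, Cyp1a1 at chr9:57697363-57697662 on the plus strand, Alas1 at chr9:106247905-106248204 on the minus strand, and Ces2a at chr8:104733753-104734052 on the plus strand.
Nqo1: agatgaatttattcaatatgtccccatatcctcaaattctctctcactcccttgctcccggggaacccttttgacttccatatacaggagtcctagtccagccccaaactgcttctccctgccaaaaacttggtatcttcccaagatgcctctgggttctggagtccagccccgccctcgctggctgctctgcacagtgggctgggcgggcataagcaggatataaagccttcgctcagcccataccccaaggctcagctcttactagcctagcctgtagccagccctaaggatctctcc
Cyp1a1: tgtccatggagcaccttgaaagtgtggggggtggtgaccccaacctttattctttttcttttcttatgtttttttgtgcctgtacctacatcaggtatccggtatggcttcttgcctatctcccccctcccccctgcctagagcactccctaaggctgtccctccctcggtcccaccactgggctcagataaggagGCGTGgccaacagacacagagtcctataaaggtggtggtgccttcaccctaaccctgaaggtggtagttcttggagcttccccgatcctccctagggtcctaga
Alas1: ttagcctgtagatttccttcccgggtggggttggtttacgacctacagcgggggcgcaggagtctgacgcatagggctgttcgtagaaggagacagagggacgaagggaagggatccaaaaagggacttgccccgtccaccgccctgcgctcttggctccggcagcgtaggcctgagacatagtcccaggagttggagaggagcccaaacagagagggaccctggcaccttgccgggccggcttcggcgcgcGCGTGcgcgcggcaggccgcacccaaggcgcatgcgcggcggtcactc
Ces2a: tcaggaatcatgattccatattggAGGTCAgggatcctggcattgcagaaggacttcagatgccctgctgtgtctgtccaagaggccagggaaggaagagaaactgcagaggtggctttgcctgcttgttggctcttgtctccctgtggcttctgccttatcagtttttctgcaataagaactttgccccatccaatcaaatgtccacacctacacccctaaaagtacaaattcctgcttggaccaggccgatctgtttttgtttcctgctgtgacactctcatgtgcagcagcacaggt

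Both strands were searched for GCGTG, for TGACNNNGC, the core of the antioxidant response element, and for AGGTCA. Across 32851 promoter windows of this length, 32.4% held GCGTG, 12.4% held TGACNNNGC and 16.3% held AGGTCA. The Cyp1a1 match began 54 bases before the start, at -54, the Alas1 match at base 3 from the start shown, or at -222 from a second annotated start, and the Ces2a match at -226. The Nqo1 window held none of the 3 motifs. Among the 6 members with a window, GCGTG was in 3 (Arnt, Por and Alas1), TGACNNNGC in Arnt and AGGTCA in Ces2a. Among the 9 AHR target genes with a window, GCGTG was in 5. These are not the same genes as the AHR targets measured below. Ugt1a6a and Gsta1 had a window and no probe set of their own, as did Por, and Aldh3a1 and Xdh were measured without a window. A match describes the letters of the window and no more.

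Months after the last pulse, no sensor and no other member passed the test for a difference from control mice. At their brightest probe sets the members differed from control by log2 fold changes of -0.48 (Alas1) to 0.27 (Ahr) with amoxicillin and of -0.41 (Ces2a) to 0.21 (Ahr) with tylosin. A probe set was called in limma at an unadjusted P under 0.01 with an absolute log2 fold change over 0.5. None of the 13 member probe sets was called, 0 with amoxicillin, 0 with tylosin and 0 between the antibiotics. Over all probe sets, 1.35% were called with amoxicillin, 1.42% with tylosin and 0.0933% between the antibiotics, so a count of 0 in 13 is near the background. At an unadjusted p under 0.05 in limma, 2 member probe sets passed with amoxicillin (14.8% of all), 1 with tylosin (14.9%) and 0 between the antibiotics (2.96%). After Benjamini-Hochberg adjustment over all 45037 probe sets, 0 members and 0 other probe sets passed 0.05. The median log2 fold change of the member probe sets was -0.06 with amoxicillin, -0.02 with tylosin and -0.05 between the antibiotics.

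**Figure D1:**
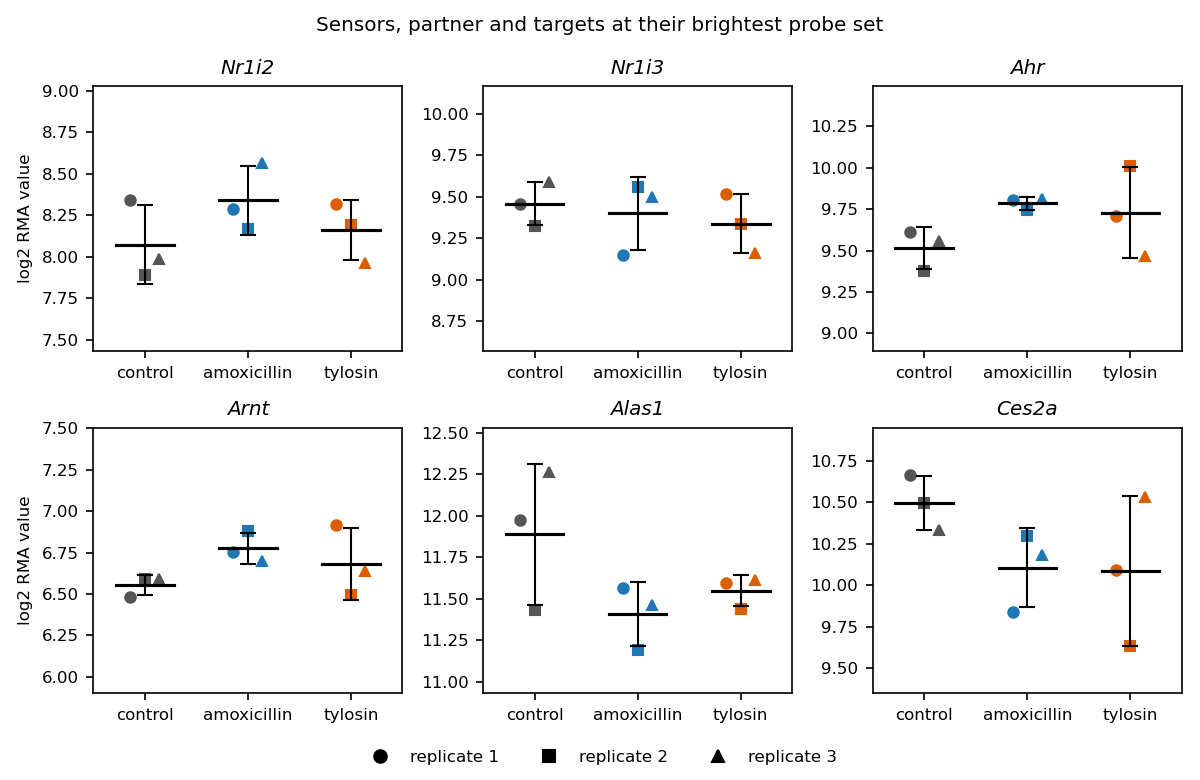
Log2 RMA value (y axis) of 6 genes at their brightest probe set in the 3 control, 3 amoxicillin and 3 tylosin arrays; symbols mark the replicate, bars the mean and whiskers the SD, and each panel spans 1.6 log2 units. The 3 amoxicillin arrays lie above the controls for Ahr and Arnt and below them for Ces2a, and control replicate 2 lies among the antibiotic arrays for Alas1.

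Nr1i2 (PXR; probe set 1451807_at) was at 8.34, 7.89 and 7.99 in the control arrays, 8.28, 8.16 and 8.57 with amoxicillin and 8.32, 8.19 and 7.96 with tylosin. Control replicate 1 was higher than all antibiotic arrays but amoxicillin replicate 3, and the groups overlapped. Against control, the log2 fold change was 0.27 with amoxicillin (SE 0.15, 95% interval -0.06 to 0.60, adjusted p = 0.42) and 0.09 with tylosin (SE 0.15, -0.24 to 0.42, adjusted p = 0.81). With 1 array left out in turn, the amoxicillin value ran from 0.15 to 0.40. The other Nr1i2 probe set, 1425723_at, gave 0.16 and -0.01, and correlated with the first over the 9 arrays at r = 0.848. The intervals reach a 1.51-fold higher Nr1i2 level with amoxicillin and 1.33-fold with tylosin, and 0.957-fold and 0.844-fold at their lower ends.

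Nr1i3 (CAR; 1425392_a_at), its single probe set, was at 9.46, 9.33 and 9.59 in the control arrays, 9.15, 9.56 and 9.50 with amoxicillin and 9.52, 9.34 and 9.16 with tylosin. Each antibiotic group held 1 array below all controls, and the others lay within the control range. The log2 fold change was -0.06 with amoxicillin (SE 0.13, -0.36 to 0.24, adjusted p = 0.86) and -0.12 with tylosin (SE 0.13, -0.42 to 0.18, adjusted p = 0.69). The low amoxicillin array was replicate 1, one of the arrays high in intestinal transcripts, and without that array and tylosin replicate 2 the amoxicillin value was 0.07.

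Ahr (1422631_at) was at 9.61, 9.37 and 9.56 in control mice, 9.80, 9.74 and 9.81 with amoxicillin and 9.71, 10.01 and 9.46 with tylosin. All 3 amoxicillin arrays lay above all 3 controls, while the tylosin arrays spread across and above them. The log2 fold change was 0.27 with amoxicillin (SE 0.13, -0.02 to 0.56, adjusted p = 0.36) and 0.21 with tylosin (SE 0.13, -0.08 to 0.50, adjusted p = 0.46). The highest tylosin array was replicate 2, high in intestinal transcripts, and without it and amoxicillin replicate 1 the values were 0.26 and 0.07. The other Ahr probe set, 1450695_at, was dim in all 9 arrays and moved the opposite way, by -0.14 and -0.26, with an adjusted p of 0.57 and 0.30. Over the 9 arrays the Ahr probe sets correlated at r = -0.508, so the direction for Ahr depended on the probe set.

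Arnt (1437042_at), the DNA-binding partner of AHR, was at 6.48, 6.59 and 6.59 in control mice, 6.75, 6.88 and 6.70 with amoxicillin and 6.92, 6.49 and 6.64 with tylosin. As with Ahr, the amoxicillin arrays all lay above the controls and the tylosin arrays straddled them. The log2 fold change was 0.22 with amoxicillin (SE 0.11, -0.03 to 0.48, adjusted p = 0.39) and 0.13 with tylosin (SE 0.11, -0.12 to 0.38, adjusted p = 0.61), and the tylosin value was 0.01 without tylosin replicate 1. Of the 4 other Arnt probe sets, 1419996_s_at gave 0.06 and 0.13. The remaining 3 were dim in all arrays and lay between -0.13 and 0.03 with amoxicillin and between -0.17 and 0.02 with tylosin. For 1 of them, 1421721_a_at, the amoxicillin arrays lay below all controls, at -0.10. The direction for Arnt thus also depended on the probe set. Groups that do not overlap were common on these arrays: 5 member probe sets did not overlap between amoxicillin and control (2 higher, 3 lower), against 19.2% of all probe sets, 0 between tylosin and control (15.9%) and 1, higher with tylosin, between the antibiotics (6.27%). In these directions the shares of all probe sets were 8.34% higher and 10.8% lower with amoxicillin, and 3.44% higher with tylosin than with amoxicillin.

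Alas1 had the largest difference from control of the members with amoxicillin. Its brightest probe set, 1424126_at, was at 11.97, 11.43 and 12.27 in control mice, 11.56, 11.19 and 11.46 with amoxicillin and 11.60, 11.44 and 11.61 with tylosin. Control replicates 1 and 3 were higher than every antibiotic array, while control replicate 2 lay among them. Group means were 11.89 ± 0.42, 11.41 ± 0.19 and 11.55 ± 0.10 (SD, n = 3 each), the spread being widest in control mice. The log2 fold change was -0.48 with amoxicillin (SE 0.18, -0.89 to -0.07, adjusted p = 0.29) and -0.34 with tylosin (SE 0.18, -0.75 to 0.07, adjusted p = 0.41).

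The size of the Alas1 difference rested on the control arrays. Without control replicate 2 it was -0.71 with amoxicillin and -0.57 with tylosin, both called, and without control replicate 3 it was -0.29 and -0.15, neither called. The second Alas1 probe set, 1455282_x_at, was at 9.51, 9.18 and 9.69 in control mice, 9.15, 9.10 and 9.08 with amoxicillin and 9.19, 9.21 and 9.19 with tylosin. At this probe set control replicate 2 was again the lowest control, and amoxicillin lay below all controls, by -0.35 (SE 0.12, -0.61 to -0.09, adjusted p = 0.26), and tylosin differed by -0.26 (SE 0.12, adjusted p = 0.34). The Alas1 probe sets correlated at r = 0.942 over the 9 arrays.

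Ces2a (1449375_at), its single probe set, was at 10.66, 10.49 and 10.33 in control mice, 9.84, 10.30 and 10.18 with amoxicillin and 10.09, 9.63 and 10.53 with tylosin. The amoxicillin arrays were all below the controls, narrowly so for replicate 2, and tylosin replicate 3 was as high as the controls. The log2 fold change was -0.39 with amoxicillin (SE 0.20, -0.84 to 0.06, adjusted p = 0.39) and -0.41 with tylosin (SE 0.20, -0.86 to 0.04, adjusted p = 0.38). The lowest array of each antibiotic was the one high in intestinal transcripts, and without both arrays the values were -0.26 and -0.18. Without tylosin replicate 3 the tylosin value was -0.63 and was called. Whether the intestinal RNA had a part in the Ces2a values was not tested.

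**Figure D2:**
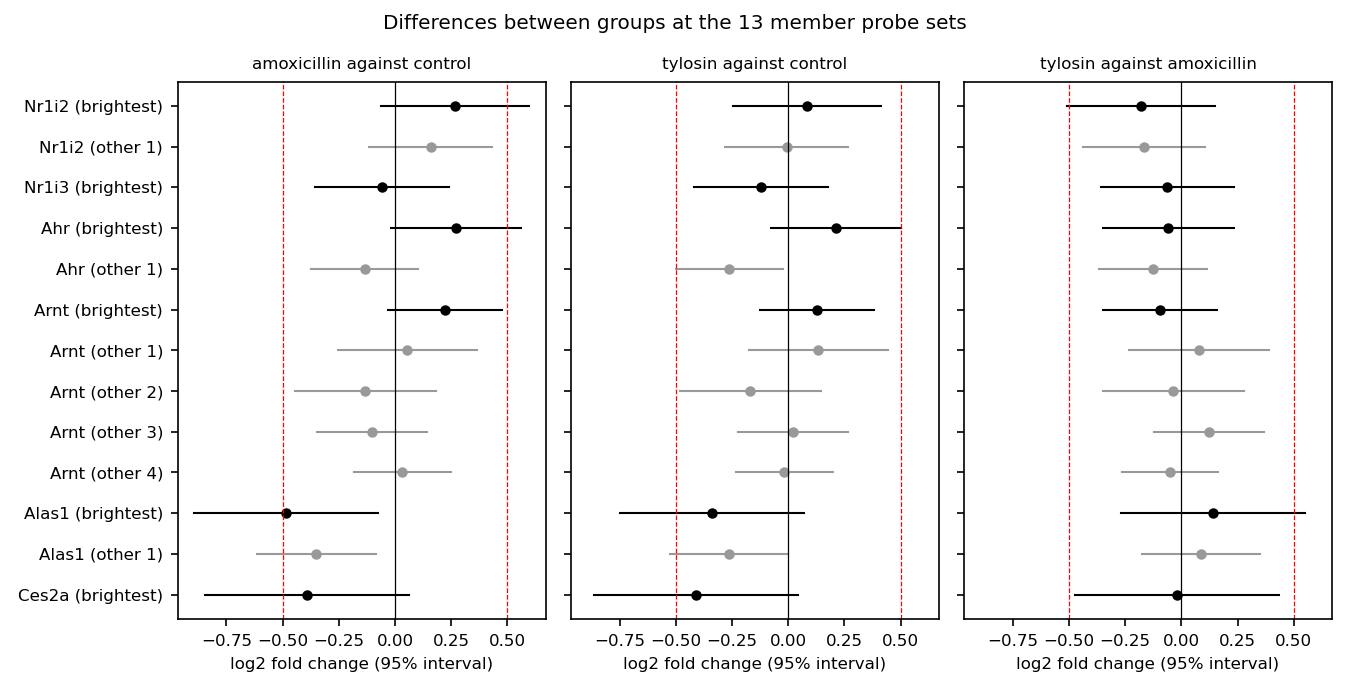
Log2 fold change (x axis) with its 95% interval from limma at the 13 member probe sets, black for the brightest of each gene and grey for the others; red dashed lines mark the size a call needs, 0.5 either way. Every point lies inside the dashed lines, and the interval excludes 0 at both Alas1 probe sets with amoxicillin and at the dim Ahr probe set with tylosin.

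Between the antibiotics, each member was measured directly as tylosin minus amoxicillin. The log2 difference was -0.18 for Nr1i2 (-0.51 to 0.15), -0.06 for Nr1i3 (-0.36 to 0.24), -0.06 for Ahr (-0.35 to 0.23) and -0.09 for Arnt (-0.35 to 0.16). It was 0.14 for Alas1 (-0.27 to 0.55) and -0.02 for Ces2a (-0.47 to 0.43). All had an adjusted p of 1. The intervals of the brightest probe sets ran from -0.51 to 0.55, and the values do not show that the antibiotics left the sensors alike. Both antibiotic groups were compared with the same control arrays.

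The wider pathway was described through 6 lists with 89 measured genes of 114, each gene at its brightest probe set. Over all 18193 genes, 1.28% were called with amoxicillin, 1.45% with tylosin and 0.11% between the antibiotics, and the median log2 fold change was -0.03, -0.01 and 0.01. In the lists, the one gene called was Nqo1, higher with both antibiotics (0.835% of all genes were called higher with amoxicillin and 1.01% with tylosin). A count of 1 in 89 is near the background. After adjustment over all probe sets, 0 list genes passed 0.05.

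**Figure D3:**
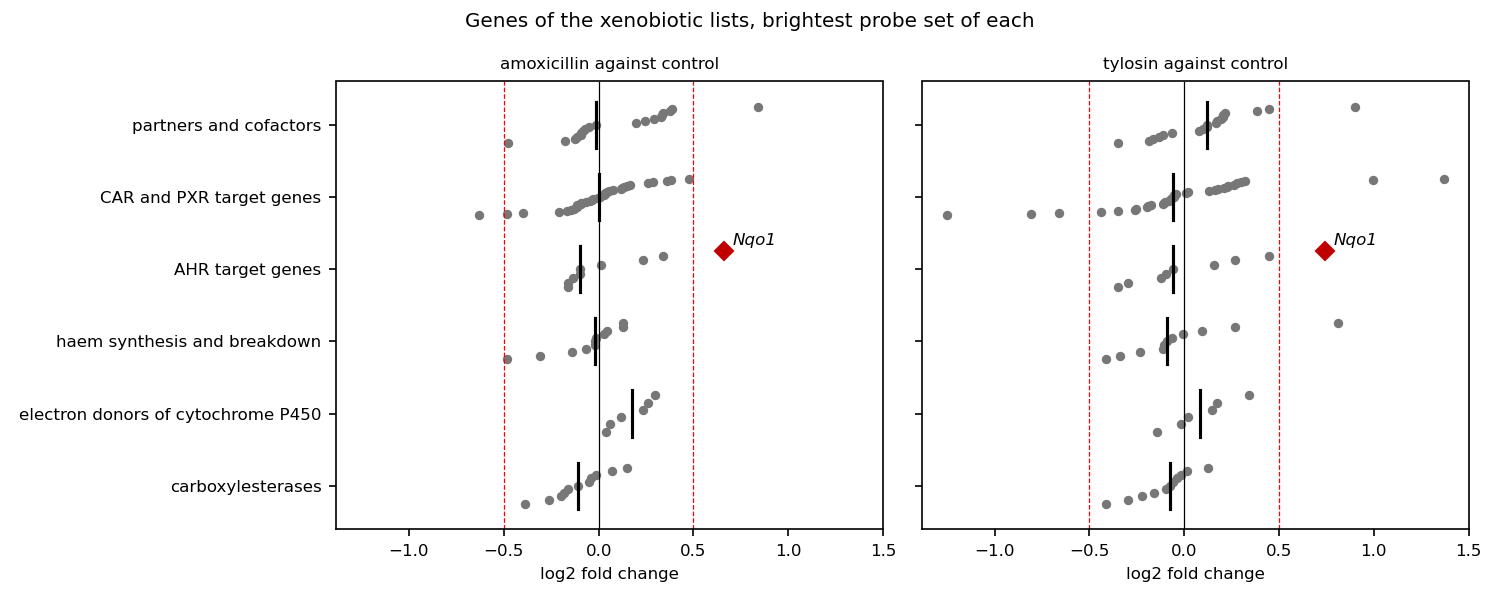
Log2 fold change (x axis) of each measured gene of the 6 lists with amoxicillin and with tylosin against control; grey points are genes not called, red diamonds called genes, black bars list medians and red dashed lines 0.5 either way. Nqo1 is the one called gene, at 0.66 and 0.74, and the list medians lie between -0.11 and 0.18.

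Among 19 measured partners, chaperones and cofactors of the sensors (24 listed), 0 were called and the median was -0.01 with amoxicillin and 0.12 with tylosin. At an unadjusted p under 0.05, 6 passed with amoxicillin (15.5% of all genes), 4 with tylosin (16.6%) and 0 between the antibiotics (3.13%). With amoxicillin they were Nr3c1 (0.38), Dnajc7 (0.24), Ncoa2 (0.29), Hif1a (0.39), Hsp90aa1 and Ppargc1a. With tylosin they were Dnajc7 (0.21), Hsp90aa1, Ppargc1a and Ahrr. Hsp90aa1, the inducible HSP90 that holds AHR in the cytosol, was at 11.31, 11.56 and 11.57 in control mice, 10.95, 11.19 and 10.87 with amoxicillin and 10.88, 11.15 and 11.37 with tylosin. The amoxicillin arrays were all below the controls and tylosin replicate 3 was not. Its log2 fold change with amoxicillin was -0.48 (SE 0.14, adjusted p = 0.24), under the size a call needs, and without control replicate 1 or amoxicillin replicate 2 it was -0.57 and called. With tylosin the Hsp90aa1 value was -0.35 (SE 0.14, adjusted p = 0.30).

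Ppargc1a, the coactivator PGC-1α of fasting metabolism, which also coactivates CAR and PXR and drives Alas1, was at 7.88, 6.85 and 7.42 in control mice, 8.36, 8.34 and 7.97 with amoxicillin and 8.95, 8.27 and 7.63 with tylosin. The amoxicillin arrays lay above all controls, and only tylosin replicate 3 fell within the control range. The log2 fold change was 0.84 with amoxicillin (SE 0.32, adjusted p = 0.29) and 0.90 with tylosin (SE 0.32, adjusted p = 0.26), and neither was called. It was called with both antibiotics without control replicate 1, at 1.09 and 1.15. Without tylosin replicate 3 it was called at 0.84 and 1.23, and without tylosin replicate 1 at 0.84 with amoxicillin. The tylosin value was 0.57 without tylosin replicate 1 and was then not called. With 1 array left out in turn, the amoxicillin value ran from 0.57 to 1.09.

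Ahrr, the repressor that AHR itself induces, was dim in every array, from 2.37 to 3.22, with values of 0.34 with amoxicillin and 0.45 with tylosin (SE 0.17 each, adjusted p = 0.38 and 0.28). Between the antibiotics the widest gaps of the list were 0.29 for Nr0b2, the corepressor SHP (adjusted p = 1), and 0.20 for Onecut1, a liver transcription factor (adjusted p = 1). Rxra, the retinoid X receptor partner of CAR and PXR, was added to these by its role. It ranged from 9.84 to 9.98 in control mice, 9.79 to 9.84 with amoxicillin and 9.67 to 9.81 with tylosin, with values of -0.09 and -0.16 (adjusted p = 0.62 and 0.39).

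Medians of the CAR and PXR targets, 34 measured genes of 44, were 0.00 with amoxicillin and -0.06 with tylosin. Of these targets, 17 were higher and 17 lower with amoxicillin (44.6% of all genes higher), and 14 higher and 20 lower with tylosin (46.7%). None was called (0 in each of the 3 comparisons), and 3, 7 and 5 had an unadjusted p under 0.05 with amoxicillin, with tylosin and between the antibiotics, where 15.5%, 16.6% and 3.13% of all genes did. Their best-known members, chosen by role after the values were seen, were Cyp3a11, with means within 0.07 of control, and Cyp2b10, lower in mean with tylosin. Cyp3a11, the main PXR-inducible cytochrome P450 of mouse liver, was at 13.26 to 13.63 in control mice, 13.27 to 13.60 with amoxicillin and 13.38 to 13.46 with tylosin, with log2 fold changes of -0.04 (-0.31 to 0.22) and -0.07 (-0.33 to 0.20). Cyp2b10, the CAR-inducible one, was at 6.46, 6.63 and 6.31 in control mice, 6.34, 6.22 and 6.52 with amoxicillin and 5.89, 6.34 and 5.88 with tylosin. The low tylosin arrays were replicates 1 and 3. Its log2 fold change with tylosin was -0.44 (SE 0.14, adjusted p = 0.24). It was called, at -0.52, without control replicate 3 and, at -0.59, without tylosin replicate 2, and near-identical Cyp2b genes can share its probes. The other measured Cyp3a genes, added after their values were seen, did not all stay as near control with tylosin as Cyp3a11. Cyp3a16 differed by -0.81 and Cyp3a44 by -0.66 (adjusted p = 0.34 and 0.31). Cyp3a13 differed by -0.04 and Cyp3a25 by 0.23 (adjusted p = 0.91 and 0.34).

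By size, the leading targets with amoxicillin were Gadd45b and Ephx1. Gadd45b, a stress-response gene and CAR coactivator, was at 7.71, 7.72 and 7.85 in control mice, 7.09, 7.44 and 6.85 with amoxicillin and 7.32, 7.62 and 8.17 with tylosin. With amoxicillin it was below all controls, by -0.63 (SE 0.20, adjusted p = 0.25), and was called at -0.79 without amoxicillin replicate 2 and at -0.63 without tylosin replicate 1 or 3. Ephx1, the microsomal epoxide hydrolase, was at 11.11 to 11.36 in control mice and 10.55 to 10.86 with amoxicillin, a log2 fold change of -0.48 (SE 0.17, adjusted p = 0.26).

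With tylosin, Gsta2 and Cyp2c54 had the widest gaps. Gsta2, a glutathione S-transferase that NRF2 also induces, was at 6.98, 7.61 and 6.73 in control mice, 8.57, 6.58 and 7.58 with amoxicillin and 8.27, 8.02 and 9.14 with tylosin. The tylosin arrays lay above all controls, with a log2 fold change of 1.37 (SE 0.45, adjusted p = 0.24), not called. It was called without control replicate 2, at 1.62, and without amoxicillin replicate 1 or 2, at 1.37, and near-identical Gsta genes can share its probes. Cyp2c54 was at 10.67, 11.59 and 11.74 in control mice, 11.42, 11.52 and 9.87 with amoxicillin and 10.27, 10.57 and 9.39 with tylosin. Tylosin was below all controls, by -1.25 (SE 0.45, adjusted p = 0.26), and the amoxicillin group spanned both levels. That value was called without control replicate 1, at -1.58, and without amoxicillin replicate 3, at -1.25.

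Between the antibiotics, Sult1e1, the oestrogen sulfotransferase, had the widest gap of the CAR and PXR targets. It was at 3.93, 3.95 and 4.26 with amoxicillin and 4.88, 6.34 and 4.53 with tylosin, a difference of 1.20 (SE 0.39, adjusted p = 1). The highest tylosin array was replicate 2, the single one over 6, and without it the difference was 0.66. Without tylosin replicate 3 it was 1.56 and was called. Gsta2 differed by 0.90 (SE 0.45, adjusted p = 1), was called at 1.39 without amoxicillin replicate 1, and was 0.40 without amoxicillin replicate 2.

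Of the AHR targets, 9 of 13 were measured. With either antibiotic 4 were higher and 5 lower, with medians of -0.10 and -0.06, where 44.6% and 46.7% of all genes were higher. At an unadjusted p under 0.05, 1 passed with amoxicillin (15.5% of all genes), 3 with tylosin (16.6%) and 0 between the antibiotics (3.13%). Nqo1, the quinone reductase that AHR and the oxidative stress factor NRF2 both induce, was the one called gene. It was at 5.31, 5.02 and 5.29 in control mice, 5.76, 5.73 and 6.12 with amoxicillin and 5.95, 6.05 and 5.85 with tylosin. All 6 antibiotic arrays lay above all 3 controls. Nqo1 was higher by 0.66 with amoxicillin (SE 0.13, 0.38 to 0.94, adjusted p = 0.19) and by 0.74 with tylosin (SE 0.13, 0.46 to 1.02, adjusted p = 0.18) in limma, or 1.58-fold and 1.67-fold. It stayed called with each array left out in turn, at 0.54 to 0.73 and 0.65 to 0.80, and without both arrays high in intestinal transcripts, at 0.72 and 0.70. These refits reuse most of the arrays in which Nqo1 was picked out, so they are not independent of the call. The Nqo1 probe set was over 6 in 2 of 9 arrays, with group means of 5.21, 5.87 and 5.95 in control, amoxicillin and tylosin mice. It was thus dim, and a filter on dim probe sets removed it.

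The other AHR targets differed among themselves. Cyp1a1, whose window holds the GCGTG shown above, was dim throughout, at 3.73, 3.73 and 3.85 in control mice, 3.51, 3.79 and 3.51 with amoxicillin and 3.73, 3.55 and 3.73 with tylosin. Its log2 fold change was -0.16 (-0.39 to 0.07, adjusted p = 0.48) and -0.10 (-0.33 to 0.13, adjusted p = 0.68). Cyp1a2, the constitutive liver enzyme of the pair, was at 11.28, 11.43 and 11.31 in control mice, 11.38, 10.87 and 11.37 with amoxicillin and 11.31, 10.84 and 10.82 with tylosin. Its low arrays were replicate 2 with amoxicillin and replicates 2 and 3 with tylosin, and its values were -0.14 (adjusted p = 0.72) and -0.35 (adjusted p = 0.35). Without tylosin replicate 1 the tylosin value was -0.51 and was called. Cyp1b1 was dim, with -0.10 and -0.12. These Cyp1 genes were chosen by role after their values were seen. Tiparp, an AHR-induced ADP-ribosyltransferase that feeds back on the receptor, was at 6.48, 6.44 and 6.24 in control mice, 6.57, 6.03 and 6.60 with amoxicillin and 6.64, 6.67 and 6.66 with tylosin. The tylosin arrays lay above all controls for Tiparp, as they did for the dim Ahrr described above, and the amoxicillin arrays overlapped them for both. Aldh3a1, another gene of the list, added after its values were seen, was dim throughout and went the other way with tylosin. Its tylosin arrays lay below all controls, at -0.30 (SE 0.10, adjusted p = 0.25), and its amoxicillin value was -0.10. The Tiparp values were 0.01 with amoxicillin (adjusted p = 0.97) and 0.27 with tylosin (SE 0.15, -0.05 to 0.59, adjusted p = 0.41), neither called. Between the antibiotics Tiparp differed by 0.25 and Cyp1a2 by -0.21 (adjusted p = 1 for both).

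**Figure D4:**
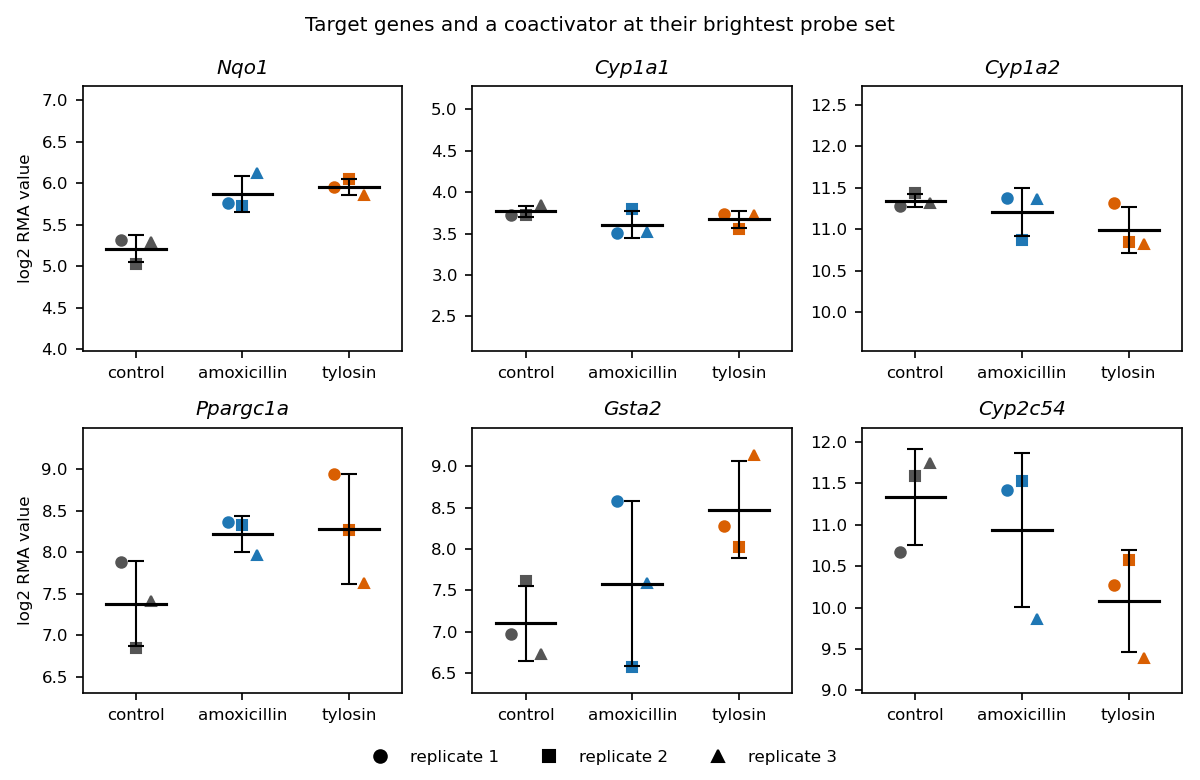
Log2 RMA value (y axis) of Nqo1, Cyp1a1, Cyp1a2, Ppargc1a, Gsta2 and Cyp2c54 in the 3 arrays of each group; symbols mark the replicate, bars the mean and whiskers the SD, and each panel spans 3.2 log2 units. All 6 antibiotic arrays lie above the controls for Nqo1, while the groups overlap for Cyp1a1 and Cyp1a2.

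In haem synthesis and breakdown, 11 of 12 genes were measured and 0 were called, with medians of -0.02 and -0.09. At an unadjusted p under 0.05, 2 passed with amoxicillin (15.5% of all genes), 2 with tylosin (16.6%) and 0 between the antibiotics (3.13%). Alas1, described above, headed the list with amoxicillin. Blvrb, a biliverdin reductase, was at 10.08, 10.24 and 10.11 in control mice, 9.80, 9.85 and 9.86 with amoxicillin and 9.77, 9.59 and 9.83 with tylosin. All antibiotic arrays lay below all controls, with small differences of -0.31 (SE 0.09, adjusted p = 0.24) and -0.41 (SE 0.09, adjusted p = 0.18), under the size a call needs. Hmox1, the inducible haem oxygenase of macrophages and stressed hepatocytes, was at 6.31 and 6.87 in tylosin replicates 1 and 2 and at 8.50 in tylosin replicate 3, against 6.31 to 6.60 in control mice. Tylosin replicate 3 was also the array in which Marco, Timd4, Cd5l, Adgre1 and Cd68 were highest and Clec4f and Vsig4 lowest. The part of macrophage RNA in the Hmox1 value was not tested. The Hmox1 value was 0.81 with tylosin (SE 0.42, adjusted p = 0.38), 0.18 without tylosin replicate 3, and 1.27 and called without tylosin replicate 1. Between the antibiotics it was 0.83, and Alad, the next enzyme of haem synthesis after Alas1, differed by -0.17 (adjusted p = 1 for both).

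The electron donors of cytochrome P450, with 6 of 8 genes measured and Por among the genes not analysed here, held 0 called genes and had medians of 0.18 and 0.08. All 6 were higher in mean with amoxicillin and 4 were with tylosin, and 44.6% and 46.7% of all genes were. An unadjusted p under 0.05 was reached by 0 with amoxicillin (15.5% of all genes), 1 with tylosin (16.6%) and 0 between the antibiotics (3.13%). Cyb5r1, a cytochrome b5 reductase, had values of 0.30 and 0.34 (adjusted p = 0.35 and 0.30), and Cyb5r3, the main reductase of cytochrome b5, of 0.26 and 0.17 (adjusted p = 0.62 and 0.76). Cyb5b, the mitochondrial cytochrome b5, was lower with tylosin than with amoxicillin in every array, by -0.26 (SE 0.12, adjusted p = 1), and Cyb5r3 differed by -0.09.

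Of the carboxylesterases, 11 of 17 were measured, 0 were called and 0 had an unadjusted p under 0.05 in any of the 3 comparisons. Of all genes, 15.5%, 16.6% and 3.13% reached that p with amoxicillin, with tylosin and between the antibiotics. Of the 11 carboxylesterases, 9 were lower in mean with amoxicillin and 9 with tylosin, where 55.3% and 53.3% of all genes were. Their medians were -0.11 and -0.08. Ces2a headed the list with both antibiotics. Ces1d, the triacylglycerol hydrolase, followed with amoxicillin at -0.26 (SE 0.15, adjusted p = 0.42), set by replicate 1 at 11.20 against 11.64 and 11.77. Without the 2 arrays high in intestinal transcripts its value was -0.09. Ces4a followed with tylosin at -0.30 (SE 0.15, adjusted p = 0.37) and was dim. Between the antibiotics Ces4a differed by -0.19 and Ces1e by 0.17 (adjusted p = 1 for both).

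The genes whose level followed each sensor most closely were taken among 7523 genes with a mean over 6, over the 9 arrays, as a description. For Nr1i2 these were Phpt1 (r = 0.955), a histidine phosphatase, Tkt (r = 0.955), the transketolase of the pentose phosphate pathway, and Park7 (r = 0.952). For Nr1i3 they were Hgs (r = 0.886), Rcbtb1 (r = 0.877) and Crip2 (r = 0.873). For Ahr they were Znrf3 (r = 0.963), an antagonist of Wnt signalling, Igfbp5 (r = 0.944) and Eml3 (r = 0.937). The 9 points share the same RNA extracts and the same arrays that stood apart.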

How the data were processed

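Liver RNA of 9 mice was measured on 1 array each. RMA in the affy package was the authors' normalization (named in the submitters' processing notes, versions not given in the sources used here), and the deposited values are log2 intensities. Of 45101 probe sets, 64 manufacturer's controls were left out, which left 45037. Of these, 34945 carried 1 gene symbol, 932 several and 9160 were unnamed here, by a platform annotation that can be old. Each of 18193 genes stood for its brightest probe set, and all probe sets of the members were given. All sample columns were used (0 left out).

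Groups were compared in 1 limma 3.58.1 fit to 9 arrays (R 4.3.3), at the thresholds of the study's methods, a log2 fold change beyond 0.5 either way at P under 0.01, with p-values adjusted after Benjamini-Hochberg over all probe sets and with 95% intervals. The fit was tested on simulated data. The number of arrays limits the precision. Named genes were the members, each list's called genes or the 2 largest differences of each list, and the 3 genes most like each sensor; genes added by role are marked as such. The members and lists were chosen with earlier results of these data known. Alternatives were the adjusted p as threshold, a larger fold (log2 over 1), removal of dim probe sets, median and quantile scaling, trended variance, array weights, a replicate block, fits of 2 groups, means of a gene's probe sets and each array left out; leaving out 2 arrays was added after seeing the data. Figures were drawn with matplotlib 3.10.9 in Python 3.11.15.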

Additional observations from a re-analysis of the deposited data

How the results depend on the processing

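No member was called under any alternative that kept all arrays. Of the fits of member differences under the alternatives, 317 kept the direction and the side of the threshold, 16 reversed and 3 became calls. With 1 array left out, the member count ran from 0 to 1 with amoxicillin and 0 to 1 with tylosin: Alas1 without control replicate 2 (both antibiotics), and Ces2a without tylosin replicate 3. Reversed values were Nr1i3 with amoxicillin 0.0682 without both arrays high in intestinal transcripts, Nr1i2 with tylosin -0.0120 under quantile normalization, Ahr with tylosin -0.0239 as the mean of its probe sets, and between the antibiotics Ahr 0.0103 with array weights, Arnt 0.00501 as the mean of its probe sets and Ces2a 0.0723 without both arrays. With 1 array left out, Nr1i3 ran from -0.14 to 0.0682 with amoxicillin and from -0.19 to 0.0261 between the antibiotics, Nr1i2 from -0.00555 to 0.22 with tylosin, and between the antibiotics Ahr from -0.20 to 0.0748, Arnt from -0.21 to 0.00287, Ces2a from -0.24 to 0.21 and Cyb5r3 from -0.25 to 0.13; the causes were not tested.

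Partners and cofactors called with amoxicillin numbered 1 with the replicate block and 1 with only the 2 groups compared, and with tylosin 1 with array weights and 1 with the replicate block, each time Ppargc1a. CAR and PXR targets called with amoxicillin numbered 1 under quantile normalization, trended variance, array weights or only the 2 groups compared, each time Gadd45b. With tylosin they numbered 1 under median scaling (Gsta2), 1 under quantile normalization (Cyp2b10), 2 without both arrays (Cyp2b10 and Gsta2) and 2 with only the 2 groups compared (Cyp2c54 and Gsta2). Between the antibiotics they numbered 1 with array weights (Sult1e1) and 1 without both arrays (Gsta2). The AHR target Nqo1 was lost, leaving 0, under adjusted p, a log2 fold change over 1 and the dim filter, which removes it by construction. With 1 array left out, partners ran from 0 to 2 with amoxicillin (Hsp90aa1, Ppargc1a, Nrip1 at 0.53 without control replicate 2 and Rxrg at 0.51 without control replicate 3) and 0 to 1 with tylosin; CAR and PXR targets from 0 to 1, 1 to 2 and, between the antibiotics, 0 to 3; AHR targets with tylosin from 1 to 2; haem genes from 0 to 1 in each comparison; and carboxylesterases with tylosin from 0 to 1. The CAR and PXR targets with tylosin thus had 0 calls in the main fit. Median scaling and quantile normalization, which also kept all arrays, each gave 1. With any array left out there was at least 1 call, and the genes differed. They were Gsta2, Cyp2c54, Cyp2b10, Cyp3a16 (-1.28) and Cyp3a44 (-0.996) without tylosin replicate 1, and Sult1e1 (1.35) without tylosin replicate 3. Over all probe sets, 638 were called with tylosin in the main fit and 470 to 1556 with 1 array left out. The share of all genes called with each array left out was not worked out, so these target counts have no background beside them. Between the antibiotics the highest count of CAR and PXR targets, 3, was without tylosin replicate 1, with Cyp3a16 (-1.33), Cyp3a44 (-1.12) and Gadd45b (0.76).

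Over all probe sets, 608, 638 and 42 were called; 0 in each comparison at adjusted p, 23, 38 and 7 at a log2 fold change over 1, and 216, 256 and 17 with the dim filter. Without both arrays 353 were called with amoxicillin and 144 between the antibiotics, and between the antibiotics 67 with array weights and 69 with the replicate block. With 1 array left out the counts ran from 397 to 928, 470 to 1556 and 36 to 137. The replicate numbers did not pair the arrays (2 of 9 same-numbered pairs correlated over 0.1, from -0.245 to 0.151, and 3 of 9 arrays were closest to their own number), and under the replicate block 0 members were called in each comparison.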

Other observations

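Some xenobiotic genes were also, or solely, read by probe sets that carry several gene symbols, which stayed out of the lists. The 3 probe sets of the Ugt1a cluster, the glucuronosyltransferases induced through all 3 sensors, had log2 fold changes from 0.01 to 0.02 under amoxicillin and from -0.05 to -0.01 under tylosin, and none was called. The probe set of Cyp2a4 and Cyp2a5 had values of -0.09 and 0.08, and that of Cyp3a41a and Cyp3a41b of 0.11 and -0.12. The probe set of Gsta1, Gsta2 and Gm3776 had values of -0.18 with amoxicillin and 1.16 with tylosin, and the tylosin arrays lay above all controls without passing the call in limma. The probe set of Ces3a and Ces3b, carboxylesterases of the hepatocyte endoplasmic reticulum, had values of 0.02 with amoxicillin and -0.47 with tylosin (adjusted p = 0.26), and its tylosin arrays lay below all controls.

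One RNA-quality measure of these arrays, the log2 gap between the 3' and 5' control probe sets of actin, ran from 1.29 to 1.40 in control mice, from 1.39 to 1.57 under amoxicillin and from 1.21 to 1.73 under tylosin. The highest actin gap was in tylosin replicate 2, at 1.73. The gap of the Gapdh control ran from 0.232 to 0.545 and was highest in amoxicillin replicate 1 (0.545) and tylosin replicate 2 (0.532), the arrays high in intestinal transcripts. The part of RNA quality in the member values was not tested.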
